A study of Mus musculus with 8 samples.

Results

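The genes described here are 10 genes of insulin, IGF1 and mTOR signalling in mouse gastrocnemius, a calf muscle of mainly fast fibres. They are Igf1, Insr, Igf1r, Irs1, Irs2, Pik3r1, Akt1, Akt2, Tbc1d4 and Mtor. They were taken by name, not by their values, and are 10 of the 21207 gene symbols that all 8 single-nucleus libraries share. Every mouse was a WT C57BL/6 animal. The Old group (titled Aging in the labels) was 20 months of age and the Young group 3 months, and neither was trained. The Running and Sedentary groups were 11 months of age at the start, and Running mice had 2 months of treadmill exercise. Each group has 2 libraries. Replicate 1 was made with 10x Genomics droplets and replicate 2 with another droplet system, called the second library set here. How many mice went into a library is not given in the sources used here, so a p-value measures the spread between libraries, part of which may be technical.

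Insulin and IGF1 are hormones that bind related receptor kinases on the cell surface. The receptors phosphorylate the adaptors IRS1 and IRS2, which recruit PI3-kinase, and the lipid it makes activates the kinase AKT. In muscle, AKT phosphorylates TBC1D4 (also called AS160), which lets the glucose transporter GLUT4 move to the membrane, and it relieves the brake on mTOR, the kinase that drives protein synthesis and growth. Insulin thereby raises glucose uptake, and IGF1, made in the liver and in the muscle itself, supports fibre growth and repair.

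On GRCm38 the genes lie on 8 chromosomes. Igf1 is at chr10:87858265-87937042 on the plus strand, Insr at chr8:3122061-3279617 on the minus strand and Igf1r at chr7:67952827-68233668 on the plus strand. Irs1 is at chr1:82233101-82291416 and Irs2 at chr8:10984681-11008458, both on the minus strand. Pik3r1 is at chr13:101680563-101768217 and Akt1 at chr12:112653821-112674884, both on the minus strand, and Akt2 is at chr7:27591552-27640826 on the plus strand. Tbc1d4 is at chr14:101442360-101609191 on the minus strand and Mtor at chr4:148448611-148557683 on the plus strand. All are protein coding, span 21.1 to 280.8 kb, and have between 4.6% (Tbc1d4) and 26.6% (Irs2) of that span in exons. Levels below are in CPM, the UMIs of a gene scaled to a common total for each library or class. They are not per length, so they are compared between samples and classes of 1 gene and never between genes.

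The libraries differed in depth. The 10x libraries held 10587 to 12991 retained nuclei and 23242685 to 44288625 UMIs, the molecular tags by which captured transcripts are counted. The second set held 4228 to 4772 nuclei and 4763152 to 9066518 UMIs. Nuclei were clustered and named from marker genes, and each class name stands for a likeness in those markers only. Adipocyte-like nuclei had 221 to 547 CPM of Adipoq in the 10x libraries, against at most 20.9 in any other class of those libraries. In the second set the class held 220 nuclei in Old, 9 in Running, 8 in Sedentary and 4 in Young, so only Old was measured. Its Adipoq level was 42.8 CPM from 10 UMIs in the 220 nuclei. That is below the 66.9 CPM (2 UMIs) of the myotendinous junction-like nuclei of the same library, so that name is weakly held there. Dcn, a matrix gene of fibro-adipogenic progenitors (FAPs), was at 2031 to 4136 CPM in FAP-like nuclei and at 66.5 CPM on average in type IIb-like fibre nuclei, which gauges free RNA. Schwann-like nuclei held 2091 CPM of Dcn, and the part of FAP RNA in their levels was not tested. Between 30 and 46 cell barcodes were shared by any 2 of the 10x libraries.

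Old replicate 2 stood apart from the other libraries. Of its nuclei, 73.3% could not be named, against 3.08% to 38.4% in the other 7, and its scaling factor (TMM) was 1.48 against 0.878 to 1.02. Its main unnamed cluster was led by Galntl6, Skint6, Kcnip4, Nrg1 and Lrp1b. Comparisons of Old with Young are therefore given with and without it. The second set held few named nuclei that were not muscle fibres, so levels by class rest on the 10x set, with 1 library from each group. Their SD over libraries includes any difference between the groups. Classes come from clustering the same nuclei, so levels by class are a description with no test, though the 10 genes were left out of the clustering.

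2 promoters are shown, because Irs1 was lower and Tbc1d4 higher in slow than in type IIb-like fibre nuclei. Each run is the 250 bases before the RefSeq start, 5′ to 3′ on the strand of the gene (RefSeq, GRCm38.p6). Capitals mark matches to the GC box GGGCGG, searched on both strands.
Irs1, chr1:82291440-82291689, minus strand: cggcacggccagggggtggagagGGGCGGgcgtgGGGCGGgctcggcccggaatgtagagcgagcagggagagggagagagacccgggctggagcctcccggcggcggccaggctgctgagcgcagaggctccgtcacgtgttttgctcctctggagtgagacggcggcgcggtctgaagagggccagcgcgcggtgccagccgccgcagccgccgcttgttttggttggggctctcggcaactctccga
Tbc1d4, chr14:101609192-101609441, minus strand: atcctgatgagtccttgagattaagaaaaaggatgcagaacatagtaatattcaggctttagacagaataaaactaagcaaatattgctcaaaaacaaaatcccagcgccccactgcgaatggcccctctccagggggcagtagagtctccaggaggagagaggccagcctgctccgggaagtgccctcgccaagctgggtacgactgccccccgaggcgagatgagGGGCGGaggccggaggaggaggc
The Irs1 promoter was 72.4% G or C and held 2 GC boxes, and that of Tbc1d4 was 54.8% and held 1. Over all 32851 RefSeq promoters of this length, the median was 52.4% and 32.7% held a GC box. The FoxO core GTAAACA (in 3.17% of all promoters) and the E-box CAGCTG (in 13%) were searched too, and neither run holds them. A match is a description of the letters, not a binding site.

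Igf1, the growth factor ligand, was read mainly from nuclei that are not muscle fibres. Its level was 684 ± 614 CPM (SD, n = 4 libraries) in adipocyte-like nuclei, 273 ± 272 (n = 3) in tenocyte-like, 238 ± 107 (n = 4) in FAP-like and 236 ± 32.6 (n = 4) in macrophage-like nuclei. Adipocyte-like nuclei were above FAP-like nuclei in 4 of 4 libraries, and their range lay wholly above that of macrophage-like nuclei. The order of the other 3 was not beyond the spread, and macrophage-like nuclei stood above the next class (Schwann-like, 81.4 ± 68.6) in all 4 libraries. FAP-like nuclei held 21.5% to 56.3% of a library's Igf1 UMIs with 5.08% to 21.1% of all its UMIs, and adipocyte-like nuclei held 24.2% to 43.3% with 3.15% to 5.45%.

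In fibre nuclei Igf1 was low. It was at 6.34 ± 2.03 CPM in type IIb-like and 7.89 ± 3.19 in type IIa/IIx-like nuclei (n = 4). As a share of the FAP-like level, Igf1 in type IIb-like nuclei of the Old library was at 4.33%, with 2.18% for Young, 1.87% for Running and 3.17% for Sedentary, while the shares of Dcn were 3.92%, 0.96%, 2.16% and 1.15%. In type IIa/IIx-like nuclei the shares of Igf1 were 4.95%, 3.08%, 2.61% and 3.12%, and those of Dcn 3.88%, 1.0%, 2.15% and 1.79%. The Igf1 share was thus below that of Dcn in type IIb-like nuclei of Running and above it in the other 7 values. Dcn gauges free RNA of FAP-like nuclei only. Adipocyte-like nuclei held 24.2% to 43.3% of a library's Igf1 UMIs, with Dcn at 1.27% to 4.95% of the FAP-like level. Free Igf1 RNA from such nuclei was not tested, so these shares do not separate it from Igf1 made in fibres. Within adipocyte-like nuclei Igf1 was at 1599 CPM in Young, 478 in Old, 354 in Running and 303 in Sedentary, so the Young library alone sets much of the spread. In FAP-like nuclei the 4 values were 394 CPM in Young, 224 in Running, 172 in Old and 162 in Sedentary. Tenocyte-like nuclei gave 569 CPM in Young, 217 in Running and 33.2 in Old, the last from 5 UMIs in 110 nuclei.

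**Figure D1:**
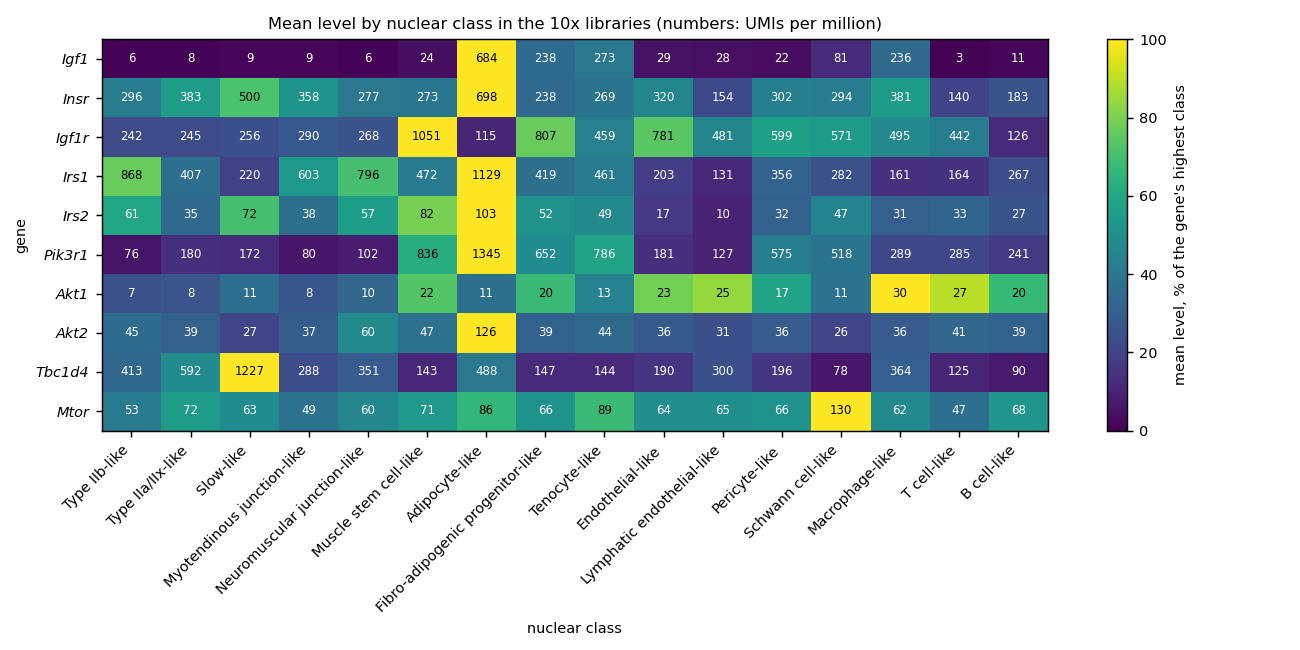
Mean level (CPM, printed in each cell) of the 10 genes (rows) in each nuclear class (columns) of the 10x set, with colour from 0 to 100% of the gene's highest class. The brightest cell is adipocyte-like for Igf1 (684 CPM), muscle stem cell-like for Igf1r (1051 CPM) and slow fibre for Tbc1d4 (1227 CPM).

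The receptors for insulin and IGF1 were spread over the classes in different orders. Insr, the insulin receptor, was highest in adipocyte-like nuclei at 698 ± 93.3 CPM (n = 4), then in slow fibre nuclei at 500 ± 63.1 (n = 2), and neither range overlapped that of the next class. Type IIa/IIx-like (383 ± 57.2), macrophage-like (381 ± 47.0) and myotendinous junction-like nuclei (358 ± 70.8) followed with overlapping ranges, and type IIb-like nuclei were at 296 ± 34.7. The lowest mean was 140 ± 52.6 (n = 3) in T cell-like nuclei.

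Igf1r, the IGF1 receptor, was highest in muscle stem cell-like nuclei at 1051 ± 156 CPM, with 1217 in Sedentary, 1138 in Young, 978 in Old and 870 in Running. FAP-like (807 ± 99.9) and endothelial-like nuclei (781 ± 59.1) came next and overlapped each other, then pericyte-like nuclei (599 ± 65.5), all n = 4. The 5 classes of fibre nuclei lay between 242 and 290 CPM with overlapping ranges. Adipocyte-like nuclei, where Insr was highest, had the lowest Igf1r level, 115 ± 37.3 CPM. Across the 14 classes with enough nuclei for a profile, log2 levels of Insr and Igf1r had a Pearson r of -0.61. The classes share libraries and depth, so this is a description only.

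Among the adaptors, Irs1 was at 1129 ± 434 CPM in adipocyte-like nuclei, 868 ± 561 in type IIb-like, 796 ± 489 in neuromuscular junction-like and 603 ± 192 in myotendinous junction-like nuclei (n = 4 each). Adipocyte-like nuclei were above type IIb-like nuclei in 4 of 4 libraries and their range did not overlap that of myotendinous junction-like nuclei, whereas the ranges of the other 3 classes overlapped. In each class the Young library was the highest. Type IIa/IIx-like nuclei were at 407 ± 259 and slow fibre nuclei at 220 ± 59.0 (n = 2). Type IIb-like nuclei held 27.4% to 72.4% of a library's Irs1 UMIs, with 18.6% to 54.6% of all UMIs. In the second set adipocyte-like nuclei could be measured in Old only, where Irs1 was at 261 CPM in the 220 nuclei whose Adipoq level was low.

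Irs2, the other adaptor, was at 103 ± 45.8 CPM in adipocyte-like nuclei, 81.6 ± 14.8 in muscle stem cell-like and 61.3 ± 18.2 in type IIb-like nuclei (n = 4 each), again with overlapping ranges. It was lowest in endothelial-like (17.1 ± 10.97) and lymphatic endothelial-like nuclei (9.93 ± 6.1, n = 3). The library sets differed for it in type IIa/IIx-like nuclei. The 10x libraries lay between 28.8 and 39.3 CPM, whereas in the second set Old was at 319 CPM, Running at 172, Sedentary at 161 and Young at 37.3. The Old value rests on 55 UMIs in 162 nuclei, with an exact Poisson 95% interval of 241 to 416 that covers counting error only.

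Pik3r1, the main regulatory subunit of PI3-kinase, had its highest mean in adipocyte-like nuclei at 1345 ± 1102 CPM. The Young library stood at 2973 CPM there, against 1062 in Running, 710 in Old and 633 in Sedentary. Muscle stem cell-like (836 ± 41.8), tenocyte-like (786 ± 154, n = 3) and FAP-like nuclei (652 ± 42.0) followed. Adipocyte-like nuclei were above muscle stem cell-like nuclei in 2 of 4 libraries only, and their ranges overlapped. The lowest mean was 75.8 ± 32.4 in type IIb-like nuclei. FAP-like nuclei held 12.7% to 48.8% of the Pik3r1 UMIs and type IIb-like nuclei 7.69% to 12.96%. Over the 14 profiles the r of Pik3r1 with Igf1 was 0.77, the highest of any pair of the 10 genes.

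The AKT kinases gave few UMIs. Akt1, the widely expressed form, had 145 to 667 UMIs in a 10x library and 36 to 58 in a library of the second set. It was at 29.6 ± 5.2 CPM in macrophage-like, 23.4 ± 11.8 in endothelial-like and 7.34 ± 3.95 in type IIb-like nuclei (n = 4), and the ranges of neighbouring classes overlapped throughout. Akt2, the form most tied to insulin-driven glucose uptake, was at 126 ± 26.6 CPM in adipocyte-like nuclei, above every other class in all 4 libraries. The next was 60.3 ± 21.7 in neuromuscular junction-like nuclei, and the rest lay between 26.3 and 46.7 CPM.

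At the end of the chain, Tbc1d4 was highest in slow fibre nuclei at 1227 ± 125 CPM (n = 2), with 1315 in Sedentary and 1138 in Old. The Young and Running 10x libraries had 1 and 7 such nuclei and gave no value. Type IIa/IIx-like nuclei were at 592 ± 74.6, adipocyte-like at 488 ± 263 and type IIb-like at 413 ± 58.3 (n = 4). The range of type IIa/IIx-like nuclei lay wholly above that of type IIb-like nuclei, and the adipocyte-like range overlapped both. Schwann-like nuclei were the lowest at 78.3 ± 58.9. Tbc1d1, the close relative of Tbc1d4 that contraction acts on, was named after its values were seen. It was at 1047 ± 332 CPM in type IIa/IIx-like, 765 ± 436 in type IIb-like and 200.3 ± 5.35 (n = 2) in slow fibre nuclei.

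Mtor, the kinase of both mTOR complexes, was the most even of the 10 genes. It was at 130.2 ± 56.0 CPM in the 218 Schwann-like nuclei and between 47.5 and 88.9 in every other class, with neighbouring ranges overlapping. Over whole libraries it stayed between 57.9 and 65.9 CPM in all 8, across both library sets.

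Irs1, Tbc1d4, Pik3r1 and Insr differed between type IIb-like and Myh2-led fibre nuclei in the same direction in all 4 10x libraries. There the type IIa/IIx-like nuclei fell into a cluster led by Myh1, the myosin of type IIx fibres, and another led by Myh2, the myosin of type IIa fibres. Led by means most raised over all other nuclei, not most abundant. Myh4, the myosin of type IIb fibres, was at 3993 CPM in the Myh1-led and 510 in the Myh2-led cluster. The largest type IIb-like cluster held 6636. Pooled over libraries, Myh1 was at 1808 CPM in the Myh1-led and 2235 in the Myh2-led cluster, but in Sedentary at 1487 and 1227. These clusters are thus not pure fibre types. From type IIb-like to Myh1-led to Myh2-led nuclei, Irs1 levels stepped down in 4 of 4 libraries. In Old they were 571, 291 and 157 CPM, in Young 1684, 872 and 228, in Running 441, 337 and 205, and in Sedentary 776, 483 and 208. Myh2-led nuclei thus held 0.136 to 0.464 of the type IIb-like level, and slow fibre nuclei 0.312 and 0.338 of it in the 2 libraries that had them.

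Tbc1d4 ran the other way, but not through the Myh1-led nuclei. These stood at 0.919 to 1.12 times the type IIb-like level, above it in 2 of 4 libraries. Myh2-led nuclei stood at 1.96 to 2.81 times and slow fibre nuclei at 2.95 and 3.47 times. Pik3r1 and Insr stepped up in 4 of 4 libraries along IIb, Myh1-led and Myh2-led nuclei. Myh2-led nuclei had 2.50 to 3.73 times the type IIb-like level of Pik3r1 and 1.38 to 1.66 times that of Insr. In each of the 4 libraries Mtor was also above its type IIb-like level in Myh2-led nuclei, by 1.05 to 1.88 times.

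The second set was clustered apart and gives ratios to type IIb-like nuclei in other libraries, in classes that were less distinct. Myh4 was at 8705 CPM in its slow and 7367 in its type IIa/IIx-like cluster, against 10464 to 14177 in its type IIb-like clusters. The slow cluster of the 10x set held 494. The part of mixed nuclei or free RNA in these ratios was not tested. In the second set, type IIa/IIx-like nuclei had 1.67 to 2.16 times the type IIb-like level of Tbc1d4 and slow fibre nuclei 1.78 to 2.01 times, both above in 4 of 4 libraries. Irs1 was below the type IIb-like level in 4 of 4, at 0.540 to 0.852 times in type IIa/IIx-like and 0.667 to 0.987 times in slow fibre nuclei. Pik3r1 was above in 4 of 4 type IIa/IIx-like values (1.13 to 2.56 times) and in 3 of 4 slow values, and Insr was above in 3 of 4 of each. Irs2 did not keep its order between sets. It was below the type IIb-like level in Myh1-led and Myh2-led nuclei of all 4 10x libraries, and above it in 3 of 4 type IIa/IIx-like and 4 of 4 slow values of the second set. Old replicate 2 had 45 slow fibre nuclei, so its Irs1 and Irs2 values in that class rest on few UMIs.

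**Figure D2:**
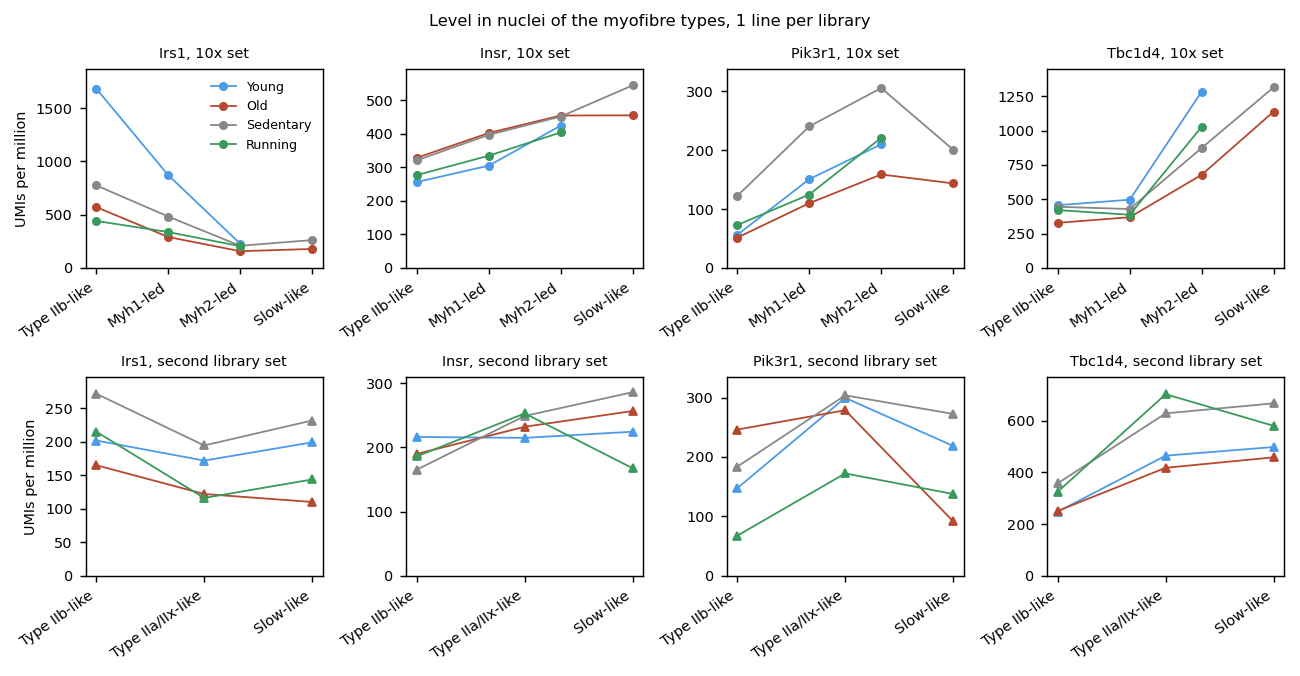
Level (CPM, from 0) of Irs1, Insr, Pik3r1 and Tbc1d4 in fibre nuclei, 1 line per library, with the 10x set above and the second library set below. Irs1 steps down from type IIb-like to Myh2-led nuclei in all 4 10x libraries (1684 to 228 CPM in Young), and Tbc1d4 is above its type IIb-like level in Myh2-led and slow nuclei.

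The genes whose profile over the 14 classes was most like each member are given by Pearson r of log2(CPM + 1), among 10528 genes. The second set allowed 5 classes only, and r there is given after it. Igf1 was most like Reep5 (0.94, then 0.95) and Pdcd6 (0.93, then 0.88). Pik3r1 was most like Dync2h1 (0.95, then 0.98), Adcy3 (0.94, then 0.77) and Pde1a (0.93, then 0.87). Akt1 was most like Zyx (0.96, then 0.92), Cdc42se2 (0.95, then 0.16) and Smdt1 (0.95, then 0.25). Insr was most like Pex11a (0.94, then 0.54), BB365896 (0.91, then 0.96) and D5Ertd579e (0.90, then 0.63).

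The same values follow for the other genes. Tbc1d4 was most like Rbm28 (0.88, then 0.15), Gbe1 (0.87, then 0.68) and Hsd17b4 (0.85, then 0.73), and Akt2 like 6430550D23Rik (0.86, then 0.76), Galm (0.85, then 0.85) and Arid1b (0.84, then 0.93). Irs1 was most like Bace1 (0.89, then -0.28), Dhdh (0.87, then 0.86) and Rwdd3 (0.86, then 0.30), and Irs2 like Mks1 (0.92, then -0.71), Slc25a17 (0.87, then 0.58) and Gm49961 (0.86, then 0.01). For Igf1r the 3 were Rab6b, Hsp90ab1 and Glce (each 0.90, then 0.22, 0.19 and 0.10), and for Mtor they were Ntng1 (0.90, then 0.88), Sema3b (0.89, then -0.63) and Ccnc (0.89, then 0.91).

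Whether the genes differ with age was asked by comparing Old with Young over UMIs summed per library. All 10 passed the filter on low counts. None was called by edgeR at an adjusted p of 0.05, and none of the 20322 genes tested was, so the share of all genes called was 0%. At an unadjusted p under 0.05 there were 557 genes in all and 1 of the 10, Irs1. Of the 10 genes, 3 had a positive and 7 a negative log2 fold change, with a median of -0.32, beside a median of 0.19 over all genes tested. Scaled to total UMIs the split was 6 to 4 and without Old replicate 2 it was 4 to 6. That background shifted with the scaling, to 0.61 on total UMIs and to -0.07 without Old replicate 2, so values are read against it. In sums over all nuclei, fewer nuclei of a class and less RNA per nucleus cannot be told apart.

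Irs1 had the widest difference. Its level was 1270 CPM in Young replicate 1 and 407 in Old replicate 1, and 177 in Young replicate 2 and 144 in Old replicate 2. Young was the higher in each library set, but Young replicate 1 stood above all 7 other libraries, of which Sedentary replicate 1 was the next at 525 CPM. The edgeR log2 fold change was -1.51 ± 0.54 (SE), with an adjusted p = 0.693. It was -1.35 without Old replicate 2 and -0.52 without Young replicate 1.

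Igf1 went opposite ways in the library sets. In the 10x set Young was at 140 CPM and Old at 77.1, a log2 difference of -0.86 (Old minus Young), whereas in the second set Young was at 11.4 and Old at 61.8, a difference of 2.44. The fitted log2 fold change was 0.39 ± 0.64 (edgeR adjusted p = 0.796), and -0.76 without Old replicate 2. In Old replicate 2, 4.61% of nuclei were adipocyte-like and held 20.9% of its Igf1 UMIs, though their Adipoq level was low, against 0.089% to 0.213% of nuclei in the other libraries of the second set. Another 69.6% of its Igf1 UMIs lay in unnamed nuclei. The part of these nuclei in the result was not tested.

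Akt2 was at 66.8 CPM in Young and 38.1 in Old in the 10x set, and at 71.4 and 82.3 in the second set. The sets disagree in direction, and the fitted log2 fold change was -0.74 ± 0.37 (edgeR adjusted p = 0.693), or -0.81 without Old replicate 2 and -0.37 without Young replicate 1. Tbc1d4 was at 381 CPM in Young and 323 in Old, and at 301 and 269 in the second set, lower in Old in both. Its log2 fold change was -0.60 ± 0.36 (edgeR adjusted p = 0.693) and -0.36 without Old replicate 2.

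For Mtor the values were 65.9 CPM in Young and 59.8 in Old, and 62.7 and 62.8 in the second set. The fitted log2 fold change of -0.47 ± 0.36 (edgeR adjusted p = 0.693) is larger than either set's own difference, -0.14 and 0.00. The fit scales Old replicate 2 by its TMM factor, and on total UMIs the fold change was -0.07. Without that library it was -0.27. Pik3r1 was at 319 CPM in Young and 260 in Old, and at 194 and 244 in the second set, which again are opposite directions (-0.40 ± 0.37, edgeR adjusted p = 0.694, and a log2 fold change of -0.53 without Old replicate 2).

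The receptors and the rest lay closer together. Insr was at 271 CPM in Young and 339 in Old, and at 200.03 and 200.6 in the second set, with a log2 fold change of -0.24 ± 0.36. Igf1r was at 340 and 428 CPM, then at 137 and 164 in the second set, with -0.09 ± 0.38. Both were higher in Old on the CPM scale and lower in the TMM-scaled fit, so their sign depends on the scaling. Irs2 was at 46.9 CPM in Young and 69.6 in Old, and at 42.7 and 65.2 in the second set, higher in Old in both, with 0.20 ± 0.42. Akt1 was at 12.2 and 17.2 CPM, then at 6.52 and 7.27, with 0.02 ± 0.66. The edgeR adjusted p-values of these 4 were 0.766, 0.917, 0.822 and 0.987. Without Old replicate 2 their log2 fold changes were 0.01, 0.23, 0.54 and 0.59.

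On the CPM scale, 4 of the 10 genes were higher in Old in both library sets (Insr, Igf1r, Irs2 and Akt1), 2 lower in both (Irs1 and Tbc1d4) and 4 differed in direction. Over all 20322 genes the counts were 10395, 2133 and 7760. With 2 libraries in each group, an exact permutation test of a single gene cannot give a two-sided p below 0.333.

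**Figure D3:**
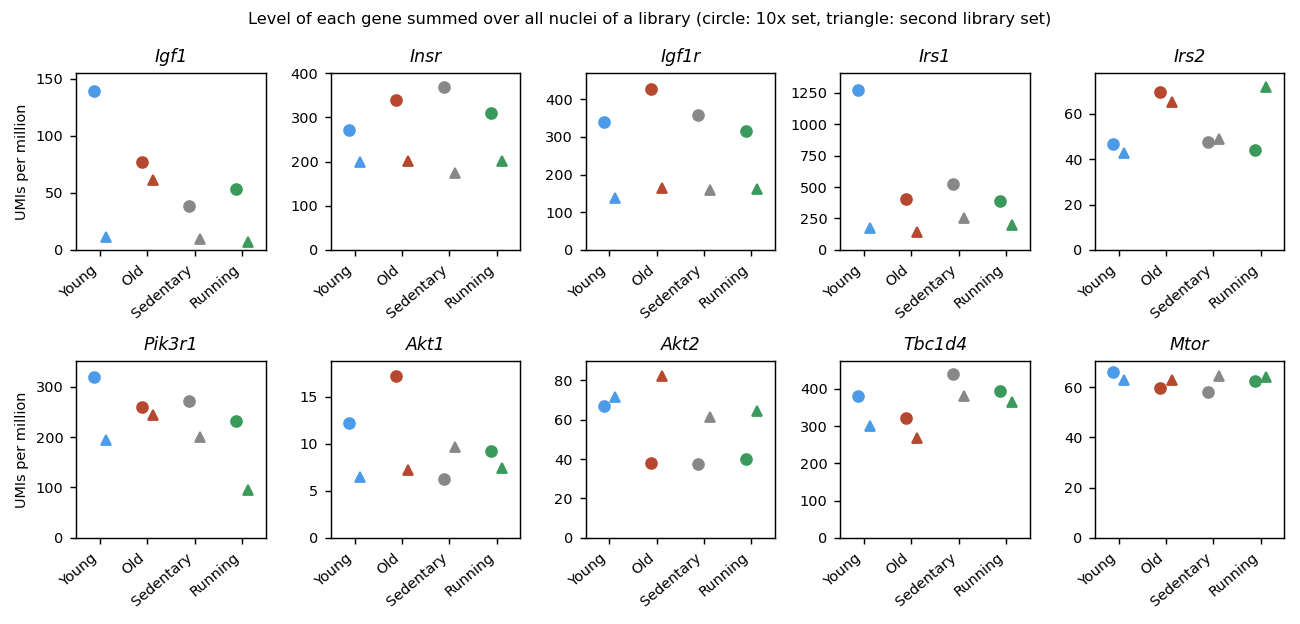
Level of each gene in CPM over all nuclei of each of the 8 libraries, with the library sets side by side. Irs1 in Young replicate 1 (1270 CPM) stands above the other 7 libraries (144 to 525 CPM), and Mtor lies between 57.9 and 65.9 CPM in all.

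Within classes, Old and Young could be compared in type IIb-like and type IIa/IIx-like nuclei for all 10 genes and in myotendinous junction-like nuclei for 8, all but Igf1 and Akt1. edgeR called none of them, beside 0% of 15358 genes in type IIb-like, 0.00728% of 13737 in type IIa/IIx-like and 0.0157% of 6360 in myotendinous junction-like nuclei. Irs1 had an unadjusted p under 0.05 in each of the 3. Old replicate 2 had 16 neuromuscular junction-like nuclei, so that class could not be fitted for age.

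In type IIb-like nuclei Irs1 was at 1684 CPM in Young and 571 in Old in the 10x set, and at 202 and 165 in the second set, with an edgeR log2 fold change of -1.22 ± 0.43 (adjusted p = 0.978). Without Young replicate 1 it was -0.24. In type IIa/IIx-like nuclei the values were 787 and 209 CPM, then 172 and 122, with -1.49 ± 0.36 (adjusted p = 0.399) and -0.91 without Young replicate 1. In myotendinous junction-like nuclei they were 847 and 501 CPM, then 233 and 66.9, with -0.92 ± 0.43 (adjusted p = 0.999) and -0.53 without Young replicate 1. The Old value of 66.9 CPM there rests on few UMIs in 28 nuclei. Young was the higher in both library sets in each class, but the classes are parts of the same libraries and not further replicates. Without Old replicate 2 the log2 fold changes in these classes were -1.28, -1.80 and -0.61, with edgeR adjusted p-values of 0.912, 0.0634 and 1.

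The call in type IIa/IIx-like nuclei depends on the settings. Irs1 passed in edgeR with no filter on low counts (adjusted p = 0.00751), where 0.339% of 20919 genes were called. It also passed when Young replicate 2, Sedentary replicate 1, Sedentary replicate 2 or Running replicate 2 was left out (adjusted p of 0.000673, 0.0374, 0.00644 and 0.0452), where 1.03%, 0.347%, 0.672% and 0.22% of genes were called. The make-up of that class also moved with the groups. Its Myh2-led cluster, where Irs1 is low, held 847 nuclei in Old replicate 1 and 142 in Young replicate 1, against 554 and 935 in the Myh1-led cluster. Within the Myh1-led cluster Irs1 was at 291 CPM in Old and 872 in Young, and within the Myh2-led cluster at 157 and 228.

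Irs2 had the opposite sign in type IIa/IIx-like nuclei, at 28.8 CPM in Young and 39.3 in Old in the 10x set and at 37.3 and 319 in the second set. The edgeR log2 fold change was 1.49 ± 0.45 (adjusted p = 0.594). Old was the higher in both sets, and it was 0.76 without Old replicate 2 (adjusted p = 0.905). It passed when Young replicate 1 was left out (2.54, adjusted p = 0.0341, with 0.0206% of 14594 genes called) or Sedentary replicate 2 (1.46, adjusted p = 0.0391, with 0.672% of 15316 called). In type IIb-like nuclei it was 0.46 ± 0.35 (adjusted p = 0.978).

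**Figure D4:**
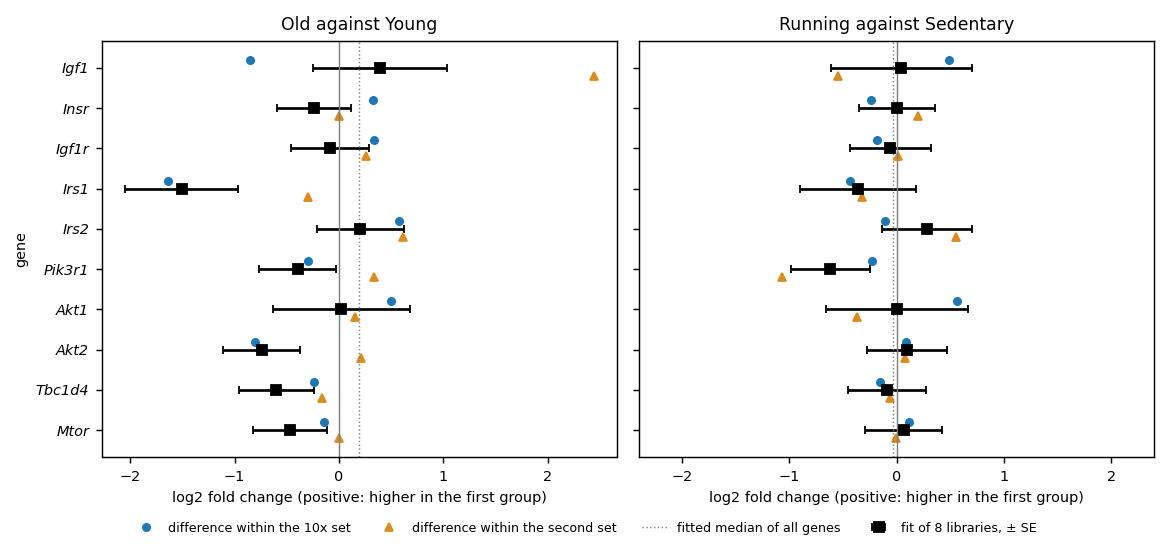
Fitted log2 fold change (edgeR, squares with SE) of each gene over all nuclei, with the difference of log2 CPM within each library set as a circle (10x) and a triangle (second set), and the median of all genes as a dotted line. In Old against Young, Irs1 (-1.51 ± 0.54) is the farthest from 0, and the 2 sets lie on opposite sides for Igf1, Pik3r1 and Akt2.

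The Irs1 level of the Young 10x library was compared with the other 10x libraries class by class, as a description. Over 11 classes with at least 20 nuclei in all 4 libraries, Irs1 was higher in Young than in each of the other 3 in 11 of 11, at 1.40 times their mean in macrophage-like nuclei up to 2.83 times in type IIb-like nuclei. In FAP-like nuclei it was at 663 CPM against 281 to 398, and in endothelial-like nuclei at 278 against 126 to 262. Igf1 and Akt2 were above all 3 others in 7 of 11 classes, Pik3r1 in 4, Mtor in 3, Tbc1d4 and Akt1 in 2, and Insr, Igf1r and Irs2 in 1. In the second library set the Young library had 177 CPM of Irs1 over all nuclei, and the others lay between 144 and 252.

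**Figure D5:**
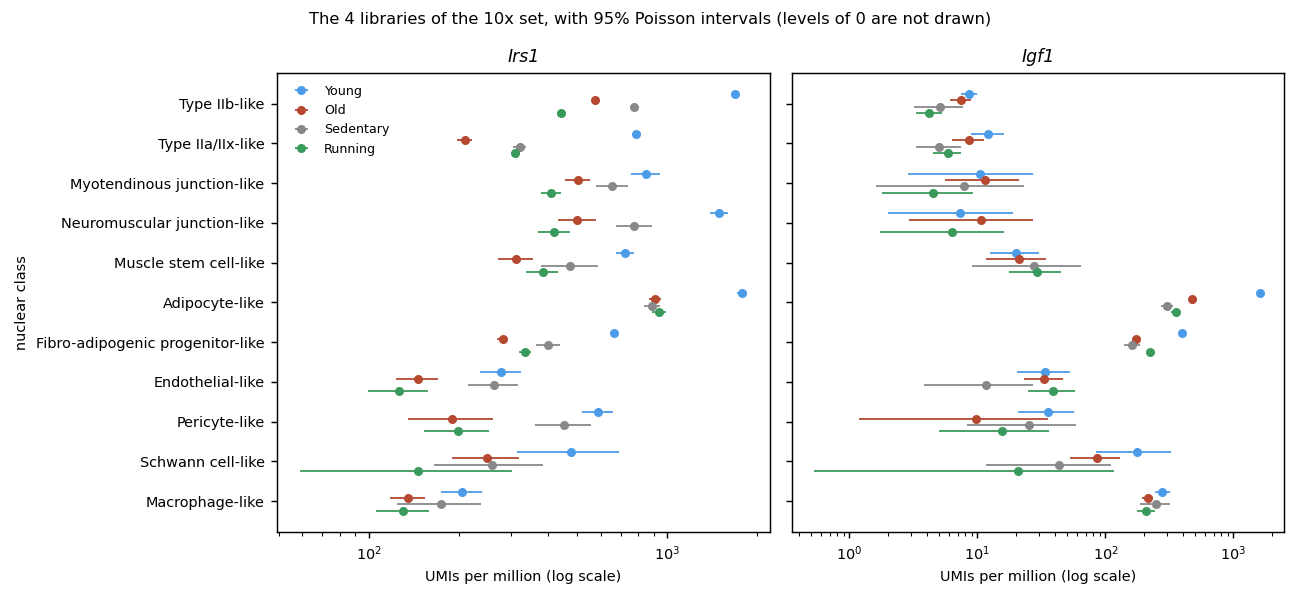
Level of Irs1 and Igf1 (CPM, log axis) in 11 nuclear classes of the 4 10x libraries, 1 colour per group, with 95% Poisson intervals that cover counting error only. Young lies to the right of the other 3 in all 11 classes for Irs1 and in 7 for Igf1.

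Whether running changes the genes was asked in the same way. None of the 10 was called by edgeR, beside 0% of 20322 genes, and at an unadjusted p under 0.05 there were 98 genes in all and 0 of the 10. Their median log2 fold change (Running against Sedentary) was 0.00, with 6 above and 4 below 0, beside -0.04 over all genes. Adjusted p-values were 1. The 2 library sets agreed in direction for 4 of the 10, Akt2 (higher in Running) and Irs1, Pik3r1 and Tbc1d4 (lower), beside 5318 higher and 5201 lower of all genes. Sedentary replicate 1 had 38.4% of its nuclei unnamed and a median of 1664 UMIs per nucleus, against 8.58% and 2805 in Running replicate 1. An unnamed cluster led by Ryr3 held 1856 nuclei of that Sedentary library and 13 of Running replicate 1. The part of this in the comparison was not tested.

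Pik3r1 had the lowest value of the 10, at 231 CPM in Running and 272 in Sedentary in the 10x set and at 95.2 and 199 in the second set. The log2 fold change was -0.62 ± 0.37 (edgeR adjusted p = 1). In type IIa/IIx-like nuclei it was at 145 CPM in Running and 279 in Sedentary, then at 172 and 304, lower in Running in both sets (-0.91 ± 0.32, edgeR adjusted p = 1). The make-up of this class differed, with 2014 Myh1-led and 479 Myh2-led nuclei in Running replicate 1 and 986 and 1155 in Sedentary replicate 1. Within the Myh1-led cluster Pik3r1 was at 125 CPM in Running and 240 in Sedentary, and within the Myh2-led cluster at 221 and 306. In type IIb-like nuclei it was at 72.9 and 122 CPM, then at 67.4 and 184 (-1.02 ± 0.48, edgeR adjusted p = 1). In the second set these nuclei were spread differently over clusters, with 1571 Running nuclei in a cluster led by Mybph and 790 in one led by Mss51, against 435 and 2207 in Sedentary. Pik3r1 was at 68.8 CPM in Running and 162 in Sedentary in the first of these, and at 63.0 and 189 in the other. The Sedentary values were also above both Young and Old in these classes of the 10x set.

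Irs1 was at 389 CPM in Running and 525 in Sedentary, and at 201 and 252 in the second set (-0.36 ± 0.54). Irs2 was at 44.2 and 47.6 CPM, then at 72.0 and 49.1, opposite directions in the sets (0.28 ± 0.42). Igf1 also was opposite, at 53.6 and 38.2 CPM, then at 6.59 and 9.65 (0.04 ± 0.66). These rest on 45 and 47 UMIs in the second set. The receptors were close between the groups, with 310 and 368 CPM of Insr, then 201 and 175, and 316 and 359 CPM of Igf1r, then 161 and 160 (log2 fold changes of 0.00 ± 0.36 and -0.06 ± 0.38).

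For Tbc1d4, Akt2, Mtor and Akt1 the differences were within the SE. Tbc1d4 was at 395 CPM in Running and 439 in Sedentary, then at 366 and 382 (-0.09 ± 0.36). Akt2 was at 39.9 and 37.7 CPM, then at 64.6 and 61.3 (0.10 ± 0.37). Mtor was at 62.4 and 57.9 CPM, then at 63.9 and 64.3 (0.06 ± 0.36), and Akt1 at 9.28 and 6.26 CPM, then at 7.43 and 9.65 (0.00 ± 0.66). Within classes edgeR called none of the genes tested, beside 0% of genes in type IIb-like, type IIa/IIx-like and myotendinous junction-like nuclei and 0.153% of 6549 genes in neuromuscular junction-like nuclei.

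Another 71 genes of the pathway, listed by role, were read in the same fits, and 70 could be tested. In Old against Young, 19 had a positive and 51 a negative log2 fold change, with a median of -0.31, beside 0.19 over all genes, and 0 were called. At an unadjusted p under 0.05 there was 1, Pik3cd. The 7 genes grouped here as mTORC1 targets, among them Eif4e, which Eif4ebp2 holds back, all had a negative value (median -0.43). So did 15 of 17 genes upstream of mTORC1 (median -0.37) and 9 of 12 of the AKT arm and its phosphatases (-0.22). Of PI3-kinase and its phosphatases, 6 of 9 were negative (-0.30). The ligands and binding proteins were split 4 to 4. These splits rest on the scaling and on Old replicate 2. Scaled to total UMIs, 37 of the 70 were positive and 33 negative (median 0.04, beside 0.61 over all genes), and the mTORC1 targets were split 2 to 5 and the upstream genes 8 to 9. Without Old replicate 2 the counts were 34 and 36 (median -0.02, beside -0.07), with splits of 3 to 4 and 9 to 8. Within the 10x set alone, 44 had a higher and 26 a lower CPM in Old (median 0.09, beside 0.25), with 4 of 7 targets and 11 of 17 upstream genes higher. On the CPM scale 1 of the 7 mTORC1 targets and 7 of the 17 upstream genes had the same sign in both library sets.

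Among pathway genes whose log2 CPM averaged 4 or more, the 5 with the smallest p were all at an edgeR adjusted p of 0.693. The scarcer genes Sesn2 (log2 fold change 1.14) and Igfbp2 (2.29) had a smaller p than Eif4e. Pik3cd, a catalytic subunit of PI3-kinase typical of blood cells, had a log2 fold change of -1.0 ± 0.42, against -0.96 within the 10x libraries and -0.14 within the other set. Grb10, an adaptor that dampens insulin receptor signalling, had -0.99 ± 0.47 (-0.58 and -0.68 by set). Rragd, a GTPase that recruits mTORC1 to lysosomes, had -0.74 ± 0.37 (-0.07 and -0.54). Eif4e, the cap-binding translation factor, had -0.79 ± 0.43 (-0.36 and -0.48). Inpp5d, an inositol phosphatase of blood cells, had 0.94 ± 0.48 (0.59 and 2.01). Without Old replicate 2 the log2 fold changes of Pik3cd, Grb10, Rragd, Eif4e and Inpp5d were -0.85, -0.57, -0.56, -0.37 and 0.30.

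In Running against Sedentary, 39 of the 70 had a positive and 31 a negative value (median 0.06, beside -0.04 over all genes), with 0 called and 0 at an unadjusted p under 0.05. Only pathway genes whose log2 CPM averaged 4 or more were ranked by p. The first 5 of these, all at an edgeR adjusted p of 1, were higher in Running in both sets. Scarcer genes with a smaller p than Eif4ebp2 were split in direction. By log2 fold change, Tbc1d7 (1.16) and Igfbp3 (0.99) were higher in Running, and Prr5l (-1.14) and Igfbp2 (-1.43) were lower. Igf2r, which clears IGF2, had 0.81 ± 0.47 (1.20 and 0.41 by set). Igfbp7, a secreted binding protein, had 0.67 ± 0.41 (0.56 and 0.72), and Sgk1, a kinase related to AKT, 0.71 ± 0.45 (1.51 and 0.02). Eif4ebp2, which holds back Eif4e, had 0.45 ± 0.37 (0.51 and 0.35). Slc2a4, which encodes GLUT4, had 0.61 ± 0.55 (0.46 and 0.69).

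By class, 12 of the 70 pathway genes had their highest 10x mean in adipocyte-like, 15 in T cell-like and 8 in muscle stem cell-like nuclei, and 1 each in type IIb-like and type IIa/IIx-like nuclei. T cell-like nuclei numbered 179, so their values are imprecise. In 4 genes the highest class stood at least 4 times above the next. Pik3r3, a regulatory subunit of PI3-kinase, was at 195 ± 41.3 CPM in endothelial-like and 47.1 ± 13.1 in lymphatic endothelial-like nuclei. Sh2b2, an adaptor of the insulin receptor, was at 92.7 ± 57.5 CPM in adipocyte-like and 15.6 ± 1.44 in macrophage-like nuclei. Sesn2, a sensor of leucine upstream of mTORC1, was at 27.9 ± 21.6 CPM in adipocyte-like and 4.71 ± 3.31 in endothelial-like nuclei. Igfbp2, at 20.9 ± 41.8 CPM in Schwann-like nuclei, rests on 1 library.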

How the data were processed

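Single nuclei of gastrocnemius were sequenced in 8 libraries. Per the labels and methods, the matrices that the authors deposited hold unnormalized UMI counts, aligned to mm10 with Cell Ranger 6.1.2 (10x) and PISA (second set). Seurat 4.1.1 is named in the submitters' processing notes. Whether intronic reads were counted is not given in the sources used here. The study's filters (over 200 genes, under 6000 genes, under 6% mitochondrial) kept 64803 of 65280 nuclei. The sums exclude 12 mitochondrial genes and 85 genes of ribosomal proteins. Doublets stayed in, and an alternative dropped the 6% with the top Scrublet scores.

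Each library set was clustered with scanpy 1.11.5 and leidenalg 0.10.2 (2000 variable genes, 30 principal components, 20 neighbours), and clusters were named from 17 marker lists with limits set after the clusters had been seen. UMIs were added up over each library, and over each class of a library that had 20 or more nuclei. edgeR 4.0.16 in R 4.3.3 tested them (quasi-likelihood F-test, TMM, filterByExpr, Benjamini-Hochberg adjustment over all genes, threshold 0.05) with the group and the library set as terms, with 3 residual degrees of freedom (dispersion 0.294 over all nuclei). SEs are Wald errors of that fit. The test was tested on simulated counts. Differences within a set are of log2 CPM between 1 library and 1 other, with no test. Replicate numbers, given in deposition order, coincide with the library sets.

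Alternatives were DESeq2 1.42.0, RLE scaling, low counts kept, no set term, fewer libraries, other filters of nuclei and genes, other clustering, each library left out and, chosen after seeing the data, scaling to total UMIs. The 10 genes and the lists were chosen with earlier results of these data known. Named besides them were the 5 pathway genes with the smallest p per comparison (mean log2 CPM of at least 4), the 3 genes most alike in profile over classes with at least 200 nuclei, and pathway genes at least 4 times above the next class. One of the genes this rule names is not reported here. Coordinates are from GENCODE vM21 and promoters from RefSeq, where 9 of the 10 genes matched.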

Additional observations from a re-analysis of the deposited data

Results flagged for a closer look

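In 4 cases both library sets moved one way in a class of nuclei and the opposite way in another class under the same comparison. None of these differences was tested, each set gives 1 pair of libraries, and none of the values was called. Values are log2 differences in the 10x set and then the second set, followed by the mean of the first class minus the mean of the second.

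In Old against Young, Igf1r, the IGF1 receptor, was at -0.14 and -0.26 in myotendinous junction-like nuclei, against 0.17 and 0.20 in type IIa/IIx-like nuclei (a difference of -0.39) and against 0.80 and 0.15 in type IIb-like nuclei (a difference of -0.68). The fitted log2 fold changes of Igf1r in these classes were -0.24, -0.01 and 0.32. Old replicate 2 had 28 myotendinous junction-like nuclei, so the -0.26 and both of these differences rest partly on few UMIs. In Running against Sedentary, Tbc1d4 was at 0.46 and 0.08 in myotendinous junction-like and at -0.08 and -0.14 in type IIb-like nuclei, a difference of 0.38. Mtor was at -0.25 and -0.35 in type IIa/IIx-like and at 0.37 and 0.04 in type IIb-like nuclei, a difference of -0.51.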

How the results depend on the processing

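Over all nuclei, 0 of the 10 genes and 0 of the pathway genes were called in either comparison under any alternative run. The alternatives on all 8 libraries called 0 of all genes. With the 4 libraries of the comparison alone, 4 of 20322 genes were called for Old against Young and 81 of 18422 for Running against Sedentary. Some fits with 1 library left out also called genes outside the lists. Within classes, 0 were called for Old against Young, 1 with no filter on low counts, and 0 to 2 when 1 library was left out (Irs1 or Irs2 in type IIa/IIx-like nuclei), in fits that called 3 to 153 genes in all, against 1 of 13737 in the fit reported. For Running against Sedentary within classes the count was 0 throughout. The library set, which coincides with the replicate numbers, was a term of the fit reported, and leaving it out called 0 genes of the lists over all nuclei.

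Signs of small log2 fold changes turned, and the cause was not tested. For Old against Young, with 1 library left out, Igf1 ranged from -0.76 to 1.36, Insr from -0.58 to 0.007, Igf1r from -0.55 to 0.23, Irs2 from -0.30 to 0.54 and Akt1 from -0.98 to 0.59. Without the set term Igf1 was -0.54 and Igf1r 0.006, and with the 4 libraries alone Akt1 was -0.028. Scaled to total UMIs, Insr was 0.16, Igf1r 0.30 and Pik3r1 0.042. For Running against Sedentary, with 1 library left out, Igf1 ranged from -0.47 to 0.44, Insr from -0.15 to 0.13, Igf1r from -0.33 to 0.17, Irs1 from -0.96 to 0.27, Irs2 from -0.24 to 0.69, Akt1 from -0.75 to 1.05, Akt2 from -0.10 to 0.33, Tbc1d4 from -0.27 to 0.13 and Mtor from -0.17 to 0.34. Insr was -0.048 without the set term, -0.002 with all deposited nuclei, -0.001 with mitochondrial and ribosomal genes and -0.034 on total UMIs. Akt1 was -0.033 and -0.001 under the middle 2 of these, and Igf1r 0.011 with the 4 libraries alone.

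Irs1 kept its negative sign for Old against Young in every alternative run, from -2.19 to -0.52 with 1 library left out. Levels by class moved by less than their SD in 68 of 70 values. Akt1 and Igf1 in the second set rest on 36 to 58 and 45 to 306 UMIs in a library, which limits them.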
